A study of Mus musculus with 6 samples.

Results

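The alpha-globin cluster of mouse chromosome 11 and the red cell anion exchanger gene *Slc4a1*, on the same chromosome, were described here as transcripts carried by red blood cells in brain RNA. The members were *Hba-a1*, *Hba-a2*, *Hba-x*, *Hbq1a*, *Hbq1b* and *Slc4a1*, found by gene symbol, older symbols included. These 6 of 5350 annotated genes had 33 of the 58919 probe sets tested, and 32 distinct ones, since 1 pair of probe sets held the same values on all arrays. The genes were chosen with their values on these arrays known, the alpha-globin signals being lower in the knockouts. Their knockout minus control differences are therefore a description and carry no test.

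Total RNA of mouse brain was hybridised to 6 whole-transcript arrays whose values stand for exon probe sets, each a group of probes within 1 exon. The 3 knockout arrays carry the genotype label APPPS1-FVBxABCC1 and the 3 control arrays the label APPPS1-FVB, so both groups share the APPPS1 transgenes and the FVB background. APPPS1 mice form amyloid plaques from mutant human APP and presenilin transgenes driven by a *Thy1* promoter, which acts in neurons, and *Abcc1*, the gene named in the genotype label of the arrays titled knockout, encodes an efflux transporter. The sources used here give no sex, age or perfusion state and do not say whether an array is 1 animal, so the spread between arrays may be technical. *Abcc1* had 0 probe sets among those tested, and the beta-globin genes had 0 as well, so neither was analysed here. Of 5017 genes with a probe set of 1 symbol, 4918 lie on chromosomes 1, 10, 11, 12 and 13. Counts and shares over all genes or probe sets therefore describe mainly these chromosomes. A gene with 0 probe sets here may still be present on the array. The brain label was checked against 10 measured genes of 25 fixed as brain tissue markers. Among them, the synaptic vesicle gene *Syt1* had log2 signals of 11.69, 11.66 and 11.63 in the knockout arrays and 11.64, 11.62 and 11.56 in the control arrays.

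Haemoglobin is a tetramer of alpha-type and beta-type globin chains. In adult mice the alpha chains come from *Hba-a1* and *Hba-a2*, a duplicated gene pair, while *Hba-x* encodes the embryonic zeta-type chain and *Hbq1a* and *Hbq1b* encode theta-type chains. Mature red cells have no nucleus, and the globin RNA of blood lies mostly in reticulocytes, the youngest circulating red cells. In brain tissue this RNA comes in large part with blood held in vessels, although alpha-globin transcripts have also been described in some neurons and glia. *Slc4a1* encodes band 3, which exchanges chloride for bicarbonate across the red cell membrane. In bulk tissue, fewer red cells and less globin RNA per cell cannot be told apart.

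The windows of 250 bases before the annotated starts are shown because the genes of the cluster differed in their values. RefSeq (GRCm38.p6) windows were found for 5 of the 6 members, all on the plus strand. The window of *Hba-a1* lies at chr11:32283422-32283671, that of *Hba-x* at chr11:32276350-32276599 and that of *Hbq1b* at chr11:32286714-32286963. Capitals mark, on either strand, GATAA as the core of sites for GATA factors, CACCC as that for KLF factors, CCAAT as that for NF-Y and TATAA as that of the TATA box, with no overlap between them.
Hba-a1: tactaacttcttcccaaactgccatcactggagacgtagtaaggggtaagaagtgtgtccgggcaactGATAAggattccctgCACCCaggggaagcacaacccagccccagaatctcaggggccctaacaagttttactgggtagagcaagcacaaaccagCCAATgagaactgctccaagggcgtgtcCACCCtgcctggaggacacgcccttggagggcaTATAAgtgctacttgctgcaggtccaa
Hba-x: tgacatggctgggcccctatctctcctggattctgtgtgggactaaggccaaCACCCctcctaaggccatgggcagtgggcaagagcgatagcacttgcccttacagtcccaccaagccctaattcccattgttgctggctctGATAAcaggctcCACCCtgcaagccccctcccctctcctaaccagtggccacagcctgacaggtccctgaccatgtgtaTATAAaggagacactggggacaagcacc
Hbq1b: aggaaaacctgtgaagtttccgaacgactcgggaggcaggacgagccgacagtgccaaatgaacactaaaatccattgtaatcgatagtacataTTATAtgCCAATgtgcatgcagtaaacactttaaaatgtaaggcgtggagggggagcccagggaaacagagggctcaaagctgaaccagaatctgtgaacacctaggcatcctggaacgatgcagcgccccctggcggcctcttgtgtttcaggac
The window of *Hba-a1* held all 4 motifs, with CACCC at 2 places. Of 32851 windows of this length in the table, 318 or 0.968% held all 4, and the shares for single motifs were 22.6% for GATAA, 52.0% for CACCC, 33.9% for CCAAT and 22.8% for TATAA. The window of *Hba-a2* was identical to that of *Hba-a1* in 247 of 247 bases once shifted by 3 bases. *Hba-x* held 3 of the 4 motifs, without CCAAT, *Hbq1b* held CCAAT and, on the minus strand, TATAA, and *Hbq1a* held CCAAT alone. The windows of *Hbq1a* and *Hbq1b* matched in 239 of 250 bases. A match describes letters and does not show a bound site.

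*Hba-a1* and *Hba-a2* had lower signals in the knockout arrays at every one of their probe sets, reaching 0.421 to 0.596 times the control level. Each of the 6 alpha-globin probe sets carries both symbols, so the transcripts of the 2 genes cannot be told apart. By the order of IDs, probe sets 10375052 to 10375054 lie before *Hbq1b* and 10375059 to 10375061 after it, as *Hba-a1* and *Hba-a2* do in the gene table. Probe sets 10375053 and 10375060 are the pair with equal values, counted once from here on, which leaves 5 distinct probe sets.

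Probe set 10375053 was the dimmest of the 5 and had the widest separation, with log2 signals of 8.72, 8.83 and 8.77 in the knockout arrays and 10.13, 9.96 and 9.97 in the control arrays. Its mean was 8.77 ± 0.055 (SD, n = 3) in the knockouts and 10.02 ± 0.095 (SD, n = 3) in the controls, which differ by -1.25 log2 (SE 0.064), or 0.421 times the control level. All knockout values lay more than 1 log2 unit below the lowest control. It was the only one of the 5 whose mean signal, 9.40, lay below 9.99, the 95th percentile of the array's own control features, and the other 4 had differences from -0.997 to -0.75.

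The first probe sets of the duplicated genes, each carrying both symbols, gave nearly equal differences. At 10375052 the signals were 10.30, 10.27 and 10.35 in the knockout arrays and 11.37, 11.24 and 11.25 in the control arrays, a log2 difference of -0.98 (SE 0.048). At 10375059 they were 9.87, 9.87 and 9.85 in the knockout arrays and 11.02, 10.74 and 10.82 in the control arrays, a difference of -0.997 (SE 0.084). In both, control 1 was the highest array and the groups did not overlap.

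The last probe sets of the genes had the smallest differences of the 5 and the tightest values. At 10375054 the signals were 11.39, 11.37 and 11.36 in the knockout arrays and 12.14, 12.13 and 12.10 in the control arrays, a log2 difference of -0.75 (SE 0.015), or 0.595 times the control level. At 10375061 they were 10.68, 10.65 and 10.64 in the knockout arrays and 11.42, 11.42 and 11.37 in the control arrays, a difference of -0.75 (SE 0.021). The difference thus ran from -1.25 to -0.75 log2 over the probe sets. It was nearly equal at matching probe sets, which carry both symbols and so do not measure the duplicated genes separately.

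**Figure D1:**
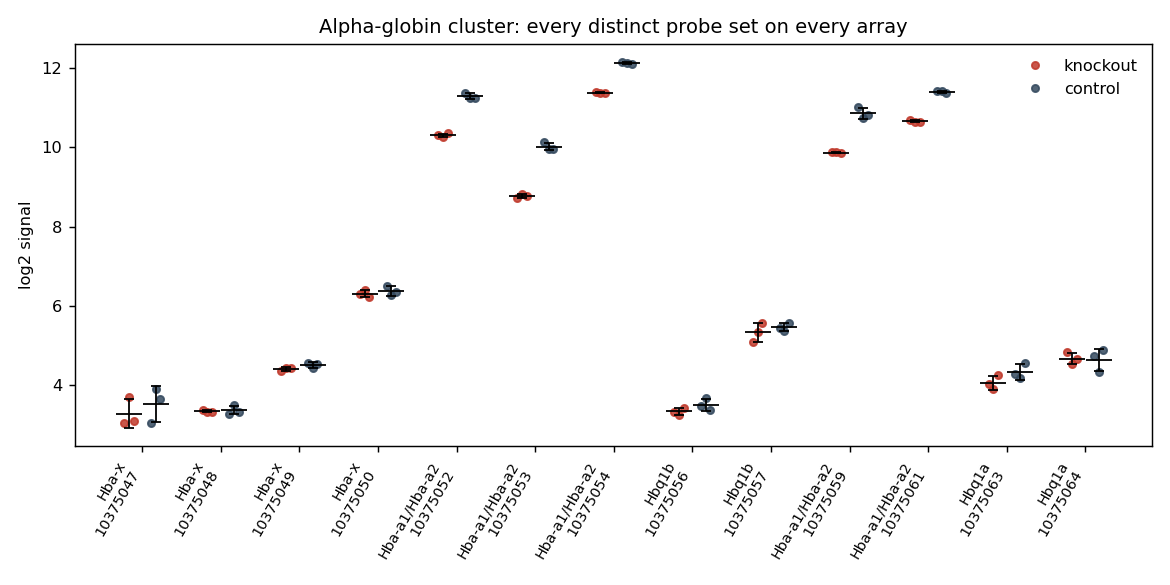
Log2 signal (vertical axis) of every distinct probe set of the alpha-globin cluster, in order of probe set ID, with 1 point per array, the group mean as a bar and the SD as whiskers (n = 3 knockout and n = 3 control arrays). The 5 probe sets of *Hba-a1* and *Hba-a2* separate by 0.75 to 1.25 log2, with all knockout points below all control points, while the groups overlap at all probe sets of *Hba-x*, *Hbq1b* and *Hbq1a*.

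Averaged over the 5 distinct probe sets, the alpha-globin level of an array was 10.192, 10.198 and 10.194 log2 in knockout 1, knockout 2 and knockout 3, and 11.216, 11.098 and 11.102 in control 1, control 2 and control 3. The group means were 10.19 ± 0.0031 (SD, n = 3) in the knockouts and 11.14 ± 0.067 (SD, n = 3) in the controls, a log2 difference of -0.94 (SE 0.039), or 0.520 times the control level. The knockout arrays spanned 0.006 log2 and the control arrays 0.118, with a gap of 0.900 between the highest knockout and the lowest control. As a measure of blood RNA, the arrays therefore formed 2 levels with little spread inside either. Control 1 was the highest array, or level with control 2, at 5 of the 5 probe sets.

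The spread within groups was small for several of these probe sets. The choice of genes is not free of it, since separation of the groups depends on spread too. The within-group SD was 0.018 at 10375054 and 0.025 at 10375061, where 0.331% and 0.743% of all tested probe sets had a lower one, and 0.102 at 10375059, where 25.6% had a lower one. The median within-group SD of the 5 was 0.059, against 0.165 over all tested probe sets, which were not matched to the 5 for signal.

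For scale, limma, which moderates the variance of each probe set by that of all others, called 3 of the 58919 probe sets at an adjusted p below 0.05, or 0.00509%, and 0 of them, 0%, were lower in the knockouts. All 3 knockout values lay below all 3 control values at 5.52% of all tested probe sets and at 5 of the 5 alpha-globin ones, a contrast that chose these genes. Of 9588 probe sets with a mean signal at or above that of 10375053, 2 outside alpha-globin had a difference as low as -0.75, both limits being the lowest signal and the smallest difference of the alpha-globin probe sets themselves. These 2, named here after their values were seen, belong to *Catspere2*, a subunit gene of the sperm calcium channel CatSper, and *Gfap*, the intermediate filament of astrocytes. At the probe set of *Gfap* the groups overlapped, with 9.92, 8.67 and 9.86 in the knockout arrays and 10.27, 9.86 and 10.58 in the control arrays. Over all tested probe sets, whatever their signal, 260 had a difference that low.

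Array medians were close between groups, but a scaling of the deposited values, which the sources used here do not give, can make them so. Whether array scale contributed to the alpha-globin difference was not tested. Over the tested probe sets the array medians were 7.07, 7.09 and 7.05 in the knockout arrays and 7.04, 7.05 and 7.06 in the control arrays. The array's own control features were higher in the knockout arrays, the opposite direction to alpha-globin, and the groups did not overlap. Their medians were 4.27, 4.29 and 4.20 in the knockout arrays and 4.09, 4.16 and 4.11 in the control arrays. When each array was centred on these control features, an alternative added after seeing the data, the alpha-globin difference was -1.08.

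*Hba-x*, the embryonic gene at the start of the cluster, and the theta-type genes were dim, with mean signals from 3.36 to 6.34 at their 8 probe sets, and 0 of these lay above the 95th percentile of the control features, as 5573 of the 58919 tested probe sets did. Overlap of the groups at such signals does not show that their transcripts were level between groups. For *Hba-x* the groups overlapped at all 4 probe sets. At 10375047 the signals were 3.04, 3.70 and 3.11 in the knockout arrays and 3.04, 3.92 and 3.66 in the control arrays, a log2 difference of -0.26 (SE 0.33). At 10375050 they were 6.30, 6.40 and 6.23 in the knockout arrays and 6.51, 6.27 and 6.35 in the control arrays, a difference of -0.07 (SE 0.086). The other two differed by -0.03 (10375048, SE 0.064) and -0.11 (10375049, SE 0.050). All 4 differences were negative, and that of 10375049 was the only one larger than its SE.

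The groups also overlapped at the theta-type genes. *Hbq1b*, listed in the array annotation under the older symbol F830116E18Rik, had 3.33, 3.26 and 3.44 in the knockout arrays and 3.47, 3.67 and 3.38 in the control arrays at 10375056, a log2 difference of -0.16 (SE 0.10). At 10375057 it had 5.10, 5.35 and 5.57 in the knockout arrays and 5.45, 5.38 and 5.57 in the control arrays, a difference of -0.13 (SE 0.15). *Hbq1a*, listed as Hbq1, had 4.03, 3.90 and 4.25 in the knockout arrays and 4.29, 4.18 and 4.57 in the control arrays at 10375063, a difference of -0.29 (SE 0.15). At 10375064 the difference was 0.03 (SE 0.18), with 4.83, 4.53 and 4.67 in the knockout arrays and 4.73, 4.34 and 4.88 in the control arrays. The groups overlapped at all 4 of these probe sets. *Hbq1b* lies between *Hba-a1* and *Hba-a2*, but its probe sets are too dim to show whether it shared their difference.

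*Slc4a1* had lower signals in the knockout arrays at 16 of its 19 probe sets, with smaller and more scattered differences than alpha-globin. Its mean over the 19 was 5.06, 4.89 and 4.97 log2 in knockout 1, knockout 2 and knockout 3, and 5.47, 5.29 and 5.24 in control 1, control 2 and control 3. The group means were 4.97 ± 0.081 (SD, n = 3) in the knockouts and 5.34 ± 0.12 (SD, n = 3) in the controls, a log2 difference of -0.36 (SE 0.083), or 0.778 times the control level. All 19 were dim, with 0 above the 95th percentile of the control features, as 5573 of the 58919 tested probe sets were. Their mean signals lay above those of 25.4% to 80.7% of the control features. The ratio of 0.778 is thus one of signals within the range of control features and is not a measure of the fold in RNA. The groups did not overlap in this mean, with a gap of 0.189 between the highest knockout and the lowest control. Control 1 was the highest array here too, and it was the highest at 9 of the 19 probe sets.

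All 3 knockout values lay below all 3 control values at 5 of the 19 *Slc4a1* probe sets, or 26.3%, beside 5.52% of all tested probe sets, and they lay above at 0 of the 19, beside 7.94%. *Slc4a1* was chosen from this same contrast, and the 19 are parts of 1 gene, so these shares only describe it. The widest difference was at 10391656, with 3.92, 4.02 and 3.93 in the knockout arrays and 5.55, 4.53 and 4.57 in the control arrays, a log2 difference of -0.93 (SE 0.34). Control 1 stood apart there, about 1 log2 unit above the other control arrays. Its neighbour 10391657 had 5.70, 5.64 and 5.19 in the knockout arrays and 6.86, 5.86 and 6.33 in the control arrays, a difference of -0.84 (SE 0.33). At 10391667 the signals were 3.78, 3.63 and 3.41 in the knockout arrays and 4.87, 4.06 and 4.25 in the control arrays, a difference of -0.79 (SE 0.27).

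The other two such *Slc4a1* probe sets differed in which group was more scattered. At 10391665 the signals were 4.17, 4.42 and 3.32 in the knockout arrays and 4.88, 4.77 and 4.63 in the control arrays, a log2 difference of -0.79 (SE 0.34). At 10391650 they were 4.25, 4.14 and 4.09 in the knockout arrays and 4.86, 4.96 and 4.29 in the control arrays, a difference of -0.54 (SE 0.21). The 14 probe sets with overlapping groups had a median of -0.22, and ran from -0.58 to 0.24. Those with higher knockout means were 10391661 (0.05), 10391666 (0.24) and 10391668 (0.16). The brightest of the 19 was among these, 10391666, with 6.84, 6.52 and 7.36 in the knockout arrays and 6.94, 6.69 and 6.38 in the control arrays.

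**Figure D2:**
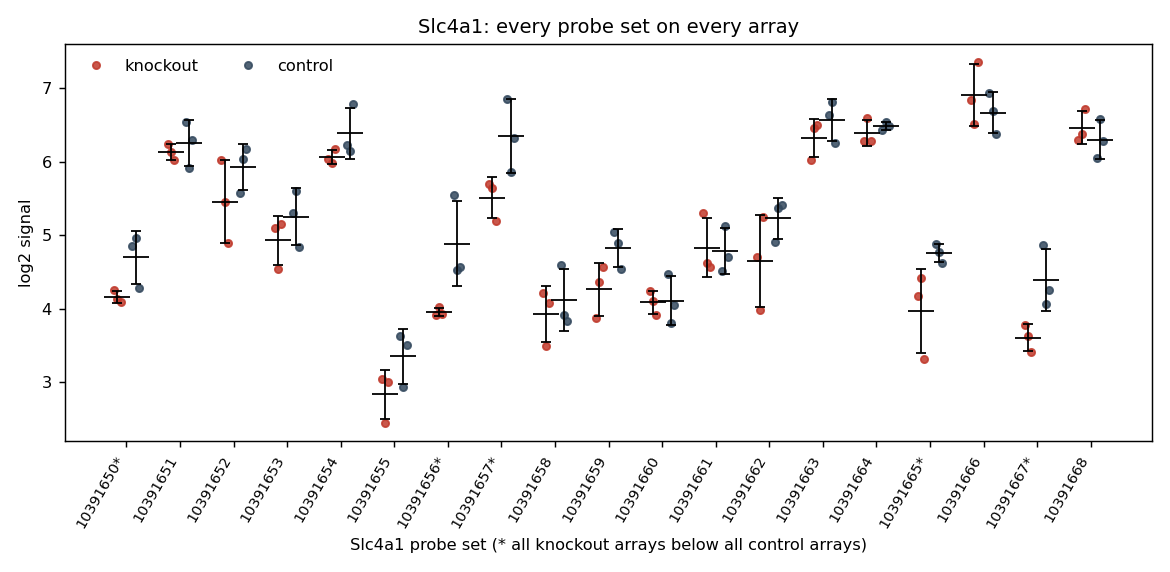
Log2 signal (vertical axis) of the 19 *Slc4a1* probe sets in order of ID, with 1 point per array, the group mean as a bar and the SD as whiskers (n = 3 knockout and n = 3 control arrays). Stars mark the 5 probe sets where all knockout arrays lie below all control arrays, and the spread within groups is wide beside the differences at most of the others.

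Within-group spread set *Slc4a1* and alpha-globin apart. The median within-group SD of the 19 *Slc4a1* probe sets was 0.354, against 0.059 for the 5 alpha-globin probe sets. All 19 had mean log2 signals between 3.10 and 6.79, below every array median, where background signal generally compresses differences on arrays. Whether the difference of -0.36 for *Slc4a1* and that of -0.94 for alpha-globin stand for 1 common fold was not tested.

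The genes around the cluster were mixed in direction. Gene values here are means over all probe sets with 1 symbol, tested with limma over 5017 genes, of which 0 passed an adjusted p below 0.05, 0% of genes, while 307 (6.12%) had a raw p below 0.05 with lower and 399 (7.95%) with higher knockout values. Of 12 measured neighbours, 6 were lower, 6 were higher and 0 passed, with 1 higher at a raw p below 0.05, and 7 were lower after quantile normalization or median centring. Their median log2 difference was 0.01, against -0.00 over all genes, of which 51.4% were lower. *Nprl3*, a subunit of the GATOR1 complex whose introns hold the enhancers of the cluster, had 7.50, 7.71 and 7.78 in the knockout arrays and 7.65, 7.60 and 7.70 in the control arrays, that is 0.01 log2 (SE 0.076 and adjusted p = 0.959 by limma). *Mpg*, a DNA repair glycosylase, differed by -0.00 (SE 0.056) and *Rhbdf1*, an inactive rhomboid protein, by -0.01 (SE 0.046).

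*Snrnp25*, a protein of the minor spliceosome, differed by -0.12 (SE 0.062 and adjusted p = 0.421 by limma), with overlapping groups in its mean. At 3 of its 6 probe sets all knockout values lay below all control values, beside 5.52% of all tested probe sets, with differences of -0.19, -0.27 and -0.42. On the far side, *Sh3pxd2b*, an adaptor of podosomes, differed by 0.09 (SE 0.057). *Ubtd2* was the 1 neighbour of 12 with groups apart in its mean, beside 11.4% of all genes that were higher in this way, at 9.17, 9.18 and 9.13 in the knockout arrays and 9.01, 8.98 and 8.99 in the control arrays, that is 0.16 log2 (SE 0.044 and adjusted p = 0.230 by limma). The differences of the other neighbours were -0.06 for the receptor gene *Il9r*, 0.10 for *Efcab9*, 0.03 for the kinase gene *Stk10*, -0.15 for the growth factor gene *Fgf18*, 0.06 for the nucleolar protein gene *Npm1* and -0.11 for *Lcp2*, an adaptor of blood cell signalling. Probe sets with small negative differences occurred along the whole region, 17 of 21 in *Lcp2* and 5 of 6 in *Fgf18*, and differences of -0.75 or lower stood at *Hba-a1* and *Hba-a2* alone among the probe sets plotted along the chromosome.

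**Figure D3:**
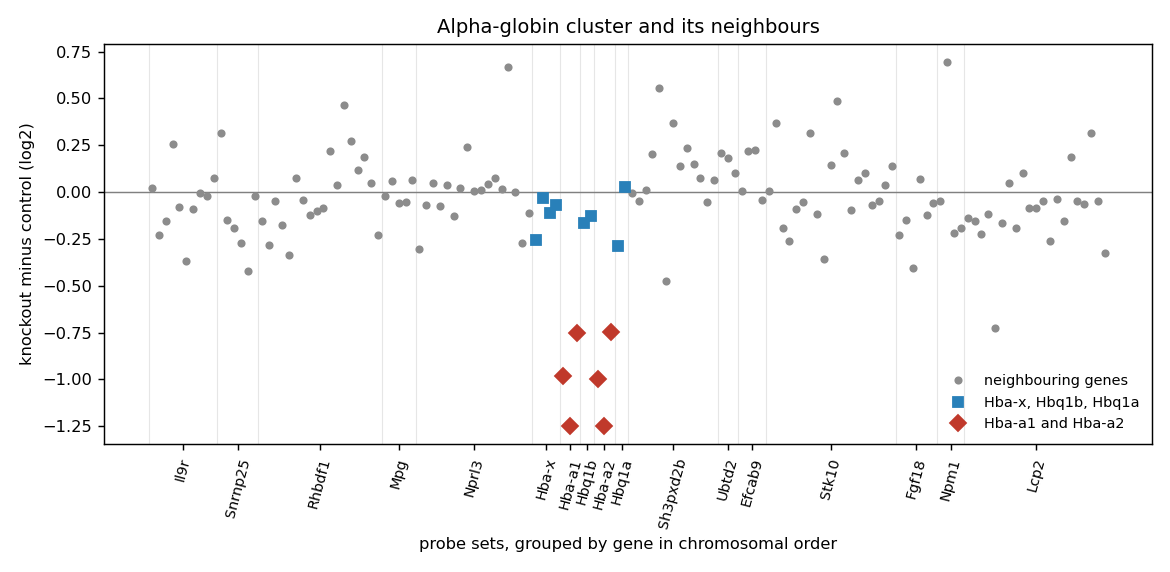
Knockout minus control difference in log2 (vertical axis) of each probe set of the alpha-globin cluster and 12 neighbouring genes, grouped by gene in chromosomal order (horizontal axis, not to genomic scale), with *Hba-a1* and *Hba-a2* placed by the order of IDs. The 6 alpha-globin points, 2 of them from probe sets of equal values, lie at -0.75 and below, the other globin genes lie between -0.29 and 0.03, and 1 neighbouring probe set, of *Lcp2*, lies at -0.72.

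Other genes of red cells were mixed in direction, and none passed the test. Of 77 genes fixed for the red cell membrane and skeleton, haem synthesis and late red cell maturation, 14 were measured, 8 lower and 6 higher, with a median log2 difference of -0.01 and adjusted p between 0.215 and 0.997 by limma. At a raw p below 0.05 there were 1 lower and 2 higher, beside 6.12% and 7.95% of all genes. The groups did not overlap for 1 gene with lower and 2 with higher knockout values, beside 8.87% and 11.4% of all genes. Many of these genes are also used by brain cells, so most are no measure of blood alone. *Alas2*, *Ahsp*, *Bpgm*, *Ank1* and *Epb42*, more closely tied to red cells, had 0 probe sets among those tested. The tested genes lie mostly on chromosomes 1, 10, 11, 12 and 13, so the lists are covered only in part.

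Of the 4 measured membrane and skeleton genes, 2 were lower and 2 higher, with a median of 0.09. *Sptb*, the beta-spectrin of the red cell skeleton, which neurons and muscle also make, had 8.59, 8.67 and 8.57 in the knockout arrays and 8.40, 8.54 and 8.36 in the control arrays, that is 0.18 log2 (SE 0.061 and adjusted p = 0.279 by limma). Its direction was opposite to that of *Slc4a1*, and its groups did not overlap. *Ackr1*, the Duffy antigen receptor of red cells and venules, differed by 0.21 (SE 0.11), *Tmcc2* by -0.10 (SE 0.060) and *Bsg*, or basigin, by -0.01 (SE 0.054).

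Of the 3 measured haem synthesis genes, 2 were lower and 1 higher, with a median of -0.09. *Ppox*, which makes protoporphyrin, had 7.06, 7.14 and 7.07 in the knockout arrays and 6.81, 6.91 and 6.89 in the control arrays, that is 0.22 log2 (SE 0.051 and adjusted p = 0.215 by limma). The knockout values all lay above the controls. *Abcb6*, a porphyrin transporter, differed by -0.09 (SE 0.075) and *Tmem14c*, needed to bring porphyrin into mitochondria, by -0.09 (SE 0.056).

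Of the 7 measured genes of late red cell maturation, 4 were lower and 3 higher as deposited, and 5 were lower after quantile normalization or median centring, with a median of -0.02 as deposited. *Prdx2*, a peroxiredoxin abundant in red cells and in neurons, had 10.76, 10.75 and 10.79 in the knockout arrays and 10.93, 10.94 and 10.94 in the control arrays, that is -0.17 log2 (SE 0.043 and adjusted p = 0.218 by limma). All knockout values lay below all control values, but *Prdx2* is placed on chromosome 8, while the IDs around its 1 probe set belong to genes of chromosome 1. *Trim58*, a ubiquitin ligase of maturing erythroblasts, differed by -0.06 (SE 0.053) and *Ube2o*, which tags proteins for removal in reticulocytes, by 0.07 (SE 0.064). *Bnip3l*, the receptor for clearance of mitochondria, differed by -0.03, *Fbxo7* by -0.02, *Btg2* by 0.16 and the hexokinase gene *Hk1* by 0.00. *Bnip3l* is placed on chromosome 14, while the IDs around its 1 probe set belong to genes of chromosome 12.

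Of 5 measured erythroid transcription factor genes, all of which act in other cells too, 1 was lower and 4 were higher under each array scaling. Their median log2 difference was 0.10 and 0 passed, with 2 higher at a raw p below 0.05, beside 7.95% of all genes. *Zbtb7a*, a repressor of fetal globin genes in humans, differed by 0.23 (SE 0.047, limma adjusted p = 0.215), with 7.42, 7.49 and 7.45 in the knockout arrays and 7.22, 7.26 and 7.20 in the control arrays. *Mafg*, a small Maf partner of NF-E2, differed by 0.18 (SE 0.044), *Bcl11a* by 0.10 (SE 0.048) and *Foxo3* by 0.10 (SE 0.068). The groups did not overlap for *Zbtb7a*, *Mafg* and *Bcl11a*, 3 of 5 genes, beside 11.4% of all genes higher in this way.

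Genes that take up haem or move iron were split. Of 6 measured, 3 were lower and 3 higher as deposited and 0 passed, with 4 lower after quantile normalization and 5 lower after median centring. The median log2 difference was -0.03, and 1 gene was lower at a raw p below 0.05, beside 6.12% of all genes. The groups did not overlap for 1 gene, lower in the knockouts, beside 8.87% of all genes. *Steap3*, the ferric reductase of developing red cells, had 6.06, 5.91 and 5.98 in the knockout arrays and 6.25, 6.14 and 6.17 in the control arrays, that is -0.21 log2 (SE 0.058 and adjusted p = 0.231 by limma) with all knockout values below the controls. *Hfe*, a regulator of iron uptake, differed by -0.13, the iron exporter gene *Slc40a1* by -0.07 and *Lrp1*, a receptor for haem bound to haemopexin, by 0.08.

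White cells and platelets travel with red cells in blood, but most of their measured markers were dim. Group means ran from 2.95 (*Cxcr2* in the knockouts) to 7.58 (*Lyz2* in the controls). All lay below the 95th percentile of the control features, which only 5573 of the 58919 tested probe sets exceeded. The control means of *Lyz2* and *Plek*, 7.58 and 7.23, lay above every array median, the highest being 7.09. Small differences at dim signals do not show that these cells were level between groups. Of 9 platelet markers, 5 were lower and 4 higher, or 6 lower after median centring, with a median log2 difference of -0.05. Of these 0 passed, with 1 lower and 1 higher at a raw p below 0.05, beside 6.12% and 7.95% of all genes. *Alox12* differed by 0.23, the coagulation factor gene *F5* by 0.21, *F13a1*, also made by macrophages, by -0.18 and *Plek* by -0.14. The groups did not overlap for 2 of the 9 with lower knockout values, *F13a1* and *Selp*, beside 8.87% of all genes. They did not overlap for 1 with higher values, *F5*, beside 11.4%. *Itga2b* and *Gp1ba*, receptor genes close to specific for platelets and named here after their values were seen, differed by -0.09 and -0.05, with overlapping groups.

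All 5 measured neutrophil and monocyte markers had lower knockout means, as did 51.4% of all genes, with a median of -0.19 and 0 past the threshold. Of the 5, 2 were lower at a raw p below 0.05, beside 6.12% of all genes. *Lyz2*, the lysozyme gene that brain macrophages express too, had 7.34, 6.32 and 7.48 in the knockout arrays and 7.49, 7.56 and 7.68 in the control arrays, that is -0.53 log2 (SE 0.27 and adjusted p = 0.423 by limma). The groups did not overlap, as for 8.87% of all genes lower in this way, but knockout 3 at 7.48 was close to control 1 at 7.49. Knockout 2 lay about 1 log2 unit below the other arrays. *Fcgr4* differed by -0.31, the neutrophil protease gene *Prtn3* by -0.19 and *Cxcr2* by -0.06. The mean of the list was 4.69, 4.35 and 4.60 in the knockout arrays and 4.78, 4.73 and 4.81 in the control arrays. Knockout 2 was its lowest array, as for *Lyz2*, which is 1 of the 5 genes averaged. The alpha-globin means of the knockout arrays spanned only 0.006 log2, so they give no order to compare with.

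Of 13 lymphocyte markers, 9 were lower and 4 higher, or 10 lower after median centring, with a median of -0.05. Among them 0 passed the threshold and 1 was lower at a raw p below 0.05, beside 6.12% of all genes. *Ighm*, the heavy chain of immunoglobulin M, had 5.60, 5.56 and 5.67 in the knockout arrays and 5.80, 5.85 and 5.86 in the control arrays, that is -0.23 log2 (SE 0.050 and adjusted p = 0.215 by limma). Its groups did not overlap, which held for 1 of the 13, beside 8.87% of all genes lower in this way. *Cd48* differed by -0.23, *Ptprc*, which microglia express as well, by -0.17 and *Ccr7* by -0.11. Knockout 2 was again the lowest array for *Cd48* and *Ptprc*.

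Markers of vessel cells, which mark how much vasculature a sample holds, had list medians close to that of all genes. The 7 measured endothelial markers were dim, however, with all group means below every array median. The same holds for *Des*, *Higd1b* and *Lmod1* among the pericyte and smooth muscle markers. Small differences at such signals do not show that vessel content was level between groups. Of 7 endothelial markers, 5 were lower and 2 higher, with a median log2 difference of -0.03, and *Ctla2a* differed by -0.40 (SE 0.23), *Ackr1* by 0.21, *Esm1* by -0.12 and *Selp* by -0.09. *Ctla2a* had 3.92, 3.89 and 3.41 in the knockout arrays and 3.93, 3.82 and 4.67 in the control arrays, so knockout 3 and control 3 stood apart in opposite directions. Of 5 pericyte and smooth muscle markers, 3 were lower and 2 higher, with a median of -0.00, and *Rgs5* differed by -0.11, *Des* by 0.08, *Higd1b* by 0.04 and *Lmod1* by -0.00. Of 10 brain tissue markers, 5 were lower and 5 higher, with a median of 0.01. Among these *Gfap* differed by -0.48, *Meg3* by 0.19, *Nsg2* by 0.14 and *Mapt* by 0.12. In each of these 3 lists 0 genes passed, and at a raw p below 0.05 there was 1, *Meg3*, higher in the knockouts as 7.95% of all genes were. The groups did not overlap for 1 endothelial marker, *Selp*, beside 8.87% of all genes lower in this way.

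**Figure D4:**
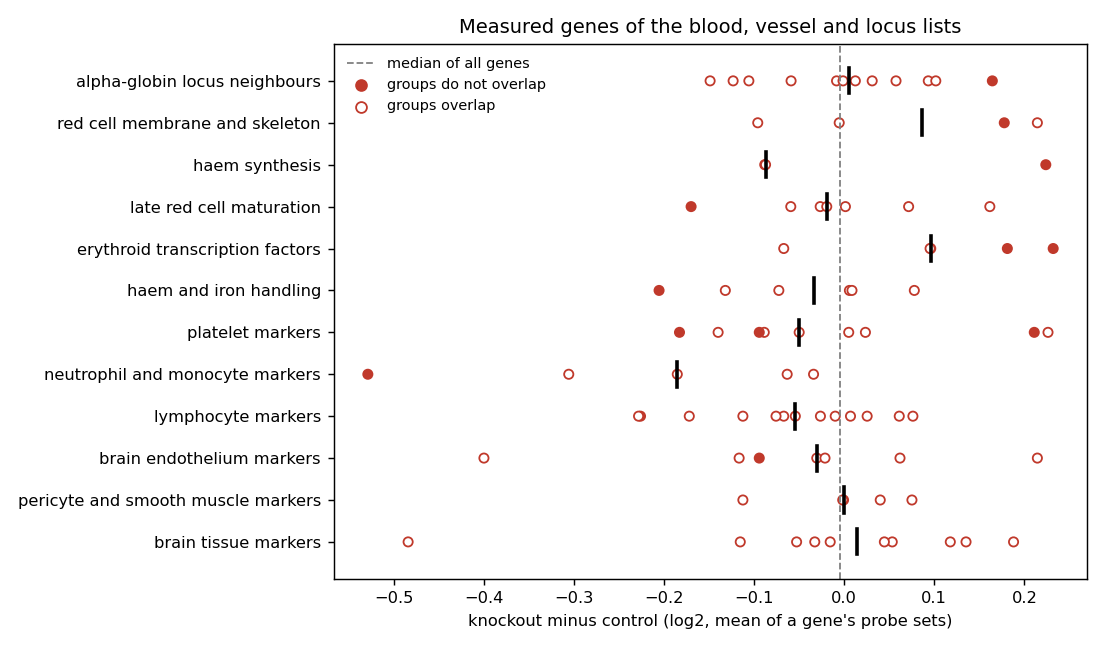
Knockout minus control difference in log2 (horizontal axis) of each measured gene in 12 lists (vertical axis), by the mean of its probe sets. Black bars mark list medians, the dashed line the median of all 5017 genes, and filled points the genes whose 3 knockout and 3 control arrays do not overlap. No point reaches the alpha-globin difference of -0.94, and the lowest is *Lyz2* at -0.53.

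Profiles over the 6 arrays were next compared with that of alpha-globin. Likeness was the root mean square difference, in log2, between a probe set and the alpha-globin mean, each centred on its own mean over the 6 arrays. It was taken over 27904 probe sets of 3264 genes with 1 symbol and a mean signal of at least 7.05. A flat profile would score 0.47, the median score was 0.50, and the lowest was 0.160. Since the alpha-globin profile is in effect a split between groups, the nearest probe sets are ones that are lower in the knockouts.

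The nearest was probe set 10374788 of *Efemp1*, an extracellular matrix protein of the fibulin family, with 7.62, 7.69 and 7.58 in the knockout arrays and 8.46, 8.13 and 8.57 in the control arrays. The next were probe sets of *Hddc2* (score 0.189), *Catspere2* (0.195), *Stat6* (0.197), *Lyplal1* (0.209), *Slc6a4* (0.219), *Fn1* (0.224) and *Kcnj10* (0.234). *Stat6* is a signal transducer of interleukin 4, *Slc6a4* the serotonin transporter, *Fn1* fibronectin and *Kcnj10* a potassium channel of glia. At the single probe sets their differences lay between -1.01 (*Hddc2*) and -0.53 (*Fn1*). By the mean of a gene's probe sets they were nearer 0 for all 8, at -0.69 for *Hddc2*, -0.53 for *Catspere2*, -0.51 for *Efemp1*, -0.44 for *Lyplal1*, -0.30 for *Slc6a4*, -0.26 for *Kcnj10*, -0.23 for *Fn1* and -0.09 for *Stat6*. For *Catspere2*, however, the median of its other 12 probe sets was -0.82, lower than the -0.75 of the nearest one. None of the 8 is on the lists of red cell genes. Only 14 of the 77 listed genes were measured, and the members were left out, so this absence decides nothing about the profile.

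**Figure D5:**
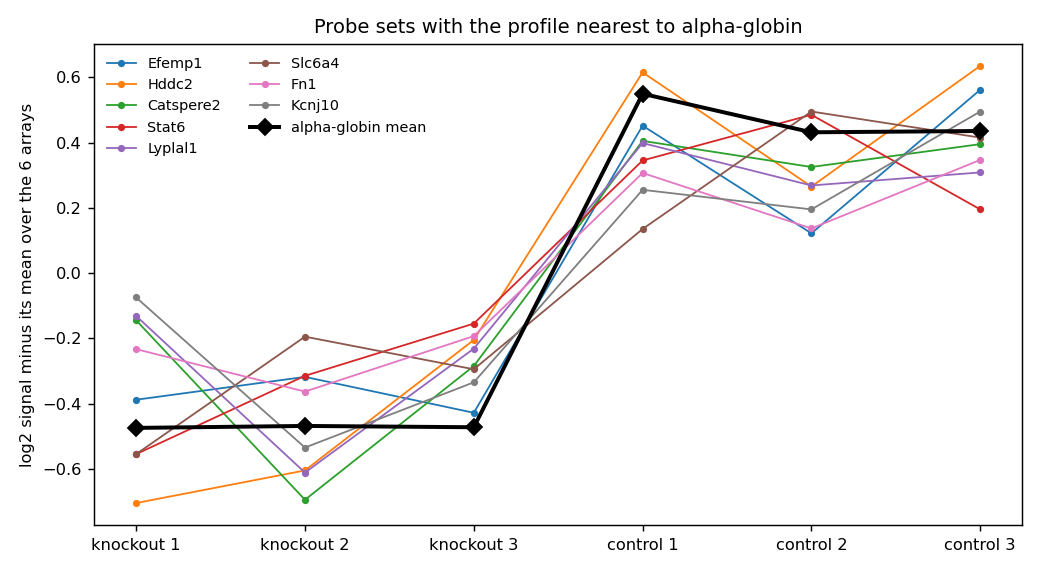
Log2 signal of an array minus the mean over the 6 arrays (vertical axis) for the alpha-globin mean of 5 distinct probe sets (black) and the nearest probe set of each of 8 genes, by array (horizontal axis). The alpha-globin mean spans 0.006 within the knockout arrays and 0.118 within the control arrays. The 8 other probe sets vary more within the knockout arrays, but each is a single probe set. Averaging 5 probe sets reduces spread, so these spans are not like for like. Alpha-globin probe set 10375053 alone had knockout signals of 8.72, 8.83 and 8.77, and that of *Efemp1* had 7.62, 7.69 and 7.58. Lines only join the points of 1 probe set, since replicate arrays have no order.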

How the data were processed

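The deposited table holds log2 signals of exon probe sets, with MAS5 named, without a version, per the submitters' processing notes. The log2 scale was read from the values; the scaling between arrays and the build of the array annotation are not given in the sources used here. Array medians spanned 0.05, so values were used as deposited. The 6616 features numbered lower than any named probe set were treated as array controls and left out. Of 58919 probe sets, 53644 had 1 symbol, 877 several and 4398 none. Of 5032 symbols, 4321 were current, 698 were updated and 13 kept by the RefSeq table of GRCm38.p6, which gave 5017 genes.

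Knockout minus control was fitted with limma 3.58.1 in R 4.3.3 (lmFit, eBayes, no trend). P-values were two-sided and adjusted by Benjamini and Hochberg over all probe sets or all genes. Member SEs come from the group SDs. The number of arrays limits the precision: simulated over 58919 probe sets, the share called was 10 of 67 at 1.5-fold, 34 of 67 at 2-fold and 57 of 66 at 4-fold, and 8 calls were false. Members, the 12 lists and the naming rule were chosen with earlier results of these data known. The rule took all members, the neighbours, the 3 red cell lists, up to 4 largest differences of each other list and the 8 nearest profiles; *Itga2b*, *Gp1ba* and *Syt1* fall outside it. Alternatives covered normalization, the variance model, weighted arrays, a block for replicate number, the threshold, dim probe sets, the gene summary and each array left out.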

Additional observations from a re-analysis of the deposited data

How the results depend on the processing

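The alpha-globin difference of -0.94 stayed between -0.96 and -0.91 when 1 array was left out, and moved to -0.99 with every probe set counted, to -0.44 with the probe sets of *Hba-x*, *Hbq1a* and *Hbq1b* added, since these lie near 0, and to -1.08 after centring on the control features. The *Slc4a1* difference of -0.36 stayed between -0.41 and -0.30 with 1 array left out and became -0.50 after that centring, which was added after seeing the data. Leaving out dim *Slc4a1* probe sets gave no value, because all 19 lay below the 95th percentile of the control features, 9.99.

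At the probe set level, 3 calls were made as deposited. There were 7 at an adjusted p below 0.1, 6 after quantile normalization, 7 after centring on medians, 21 with a variance trend and robust moderation, 7 when arrays were weighted, 19 without the dimmest probe sets, and 0 to 4 without 1 array, at 0 without any 1 of the control arrays, without knockout 1 or without knockout 3. With the replicate number as a block there were 0. Same-numbered arrays did not deviate together, with correlations of 0.037, -0.070 and -0.100, and 1 of 6 arrays correlated best with its own number, so the numbers do not pair the arrays. At the gene level there were 0 calls in all 13 alternatives.

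Some list medians moved by more than the spread between arrays. With the brightest probe set of each gene they were -0.05 for locus neighbours, 0.13 for erythroid factors, -0.06 for haem and iron handling, -0.40 for neutrophil and monocyte markers and -0.0183 for brain tissue. Erythroid factors had 0.0665 after quantile normalization and 0.0761 after median centring, and haem and iron handling -0.0534 after median centring. With 1 array left out, medians moved that far at some array in 5 lists, running from -0.121 to -0.00535 for haem synthesis (nearest 0 without control 3), 0.0806 to 0.161 for erythroid factors, -0.0761 to -0.0277 for haem and iron handling, -0.0996 to 0.0111 for endothelium and -0.0309 to 0.0438 for pericytes. The causes were not tested.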
